A study of Mus musculus with 6 samples.

Results

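The genes described here are 51 mouse genes of mitosis, the kinetochore and cytokinesis, chosen by symbol from a list of checkpoint, kinetochore, spindle, condensin and cytokinesis genes, out of 54525 genes in each count table. All 51 were found, and all 51 were among the 16290 genes with enough counts to be tested. They were measured by RNA-seq of total RNA from C2C12, an established line of mouse muscle myoblasts that exits the cell cycle and fuses into myotubes when serum is lowered. The samples were 3 libraries of wild-type, untreated myoblasts in growth medium with fetal bovine serum (day 0, D0) and 3 libraries of the same line on day 5 of differentiation in horse serum (D5). Every library came from this 1 line. The labels give 3 cultured samples per day but do not say whether they were separate platings, so the p-values measure the spread between these libraries only.

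A dividing cell condenses its chromosomes, builds a kinetochore on each centromere, attaches it to spindle microtubules and, once the spindle assembly checkpoint is satisfied, activates the anaphase-promoting complex (APC/C), which releases the sister chromatids before the cell is cleaved. Many of the genes involved are transcribed mainly in G2 and M phase. Nuclei of skeletal myotubes are known as postmitotic, which makes these genes a common readout of cell-cycle exit in muscle cultures. In bulk RNA, fewer dividing cells and less RNA per cell cannot be told apart.

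Expression of all 51 genes was lower in D5 myotubes than in D0 myoblasts. Each passed the test (edgeR quasi-likelihood test, Benjamini-Hochberg adjusted over all genes tested), with a highest adjusted p of 1.1e-16, and none was higher. By the same rule 6641 of the 16290 genes were lower, a background of 40.8%, so the size of the change was counted as well. Of the 51 genes, 48 were lower by at least 4-fold, against 6.16% of all genes tested. At a limit of 16-fold, chosen after the values were seen, 37 of the 51 were lower, against 2.03% of all genes, and these 37 made up 11.2% of the 330 genes past that limit. The median log2 fold change (D5 over D0) of the 51 genes was -4.75, against 0.0022 for all genes tested, and 1.18% of all genes had a log2 fold change below that median. CPM are counts per 1000000 counts of tested genes, with library sizes adjusted by TMM factors. In CPM, the highest D5 value was under the lowest D0 value for all 51 genes, and for 41.1% of all genes tested.

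**Figure D1:**
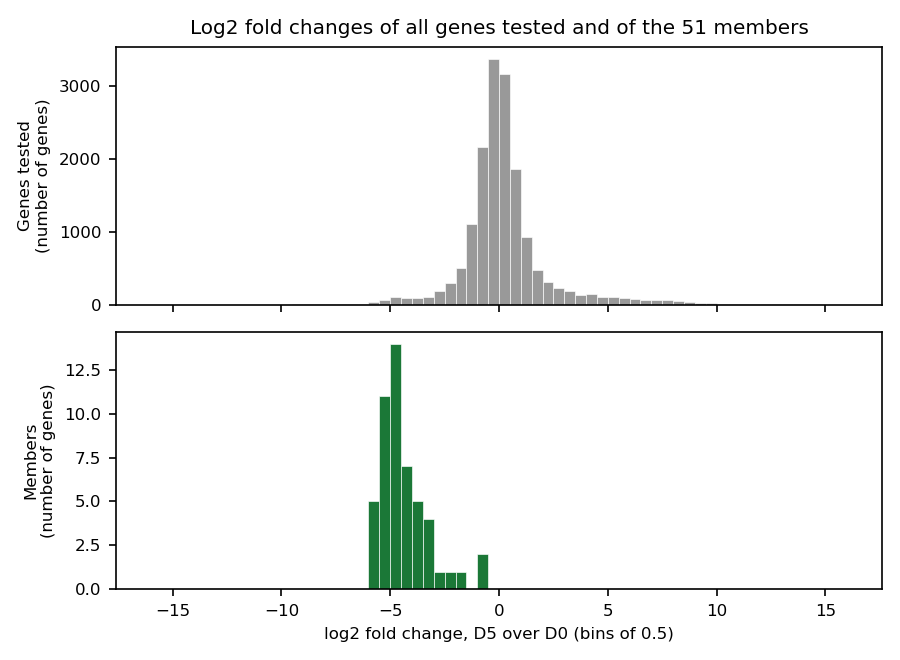
Number of genes (vertical axes) by log2 fold change of D5 over D0 (horizontal axis, bins of 0.5) for all 16290 genes tested (upper panel) and the 51 mitosis, kinetochore and cytokinesis genes (lower panel). All genes centre near 0.0022, while the 51 genes lie between -5.65 and -0.86.

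Summed over the 51 genes, expression was 6389, 6476 and 6498 CPM in the D0 libraries (6454 ± 57.4, SD, n = 3) and 406, 434 and 403 CPM in the D5 libraries (414 ± 16.9, SD, n = 3). The D5 sum was 6.42% of the D0 sum. Among the D5 libraries, replicate 2 held the highest value for 30 of the 51 genes, replicate 3 for 14 and replicate 1 for 7. The median gene kept 3.70% of its D0 level. Under 2% was left for 2 genes, from 2 to 3% for 14, from 3 to 5% for 15, from 5 to 10% for 13, from 10 to 20% for 4, and 20% or more for 3. No gene reached 0 in any library, and the lowest single count was 10, for Cdc25c in D5 replicate 2.

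The libraries held 36555048 to 40895840 gene counts at D0 and 25449759 to 25811300 at D5, and ERCC spike-in RNAs added 0.720 to 2.09% of the counts. The ERCC counts were 316682, 341518 and 284648 in the D0 libraries and 314428, 184602 and 546930 in the D5 libraries. In their gene counts, replicates were close to each other but differed by more than counting noise. All 8 myotube markers, among them Myog, Mymk and Myh3, were higher at D5, and the myoblast genes Myf5, Pax7 and Myod1 were lower, while Des was higher. Of 5 fibroblast markers, 4 were tested and Pdgfra, Dpt and Lum were higher, with Thy1 at no more than 1 count. Ly6a, the remaining tested marker, had no call (log2 fold change -0.067, edgeR adjusted p = 0.22). With means of 34.95 (D0) and 33.4 (D5) in CPM, Ly6a had the highest level of the 5 on each day. The summed level of the 5 went from 34.0 to 37.5 CPM at D0 to 82.9 to 93.0 CPM at D5. Summed levels of the other marker lists stayed low at D0 and D5: adipocyte genes reached 0.0406 CPM at most with Cidec and Lep at 0, osteoblast genes went from 0.133 to 0.214 CPM to 0.637 to 1.01 CPM with Ibsp at 0, endothelial genes from 3.31 to 3.59 CPM to 0.518 to 0.884 CPM, and leukocyte genes from 3.05 to 3.31 CPM to 1.89 to 2.60 CPM with Adgre1 at 0. The part of the fibroblast markers in the fall of the mitotic genes was not tested.

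**Figure D2:**
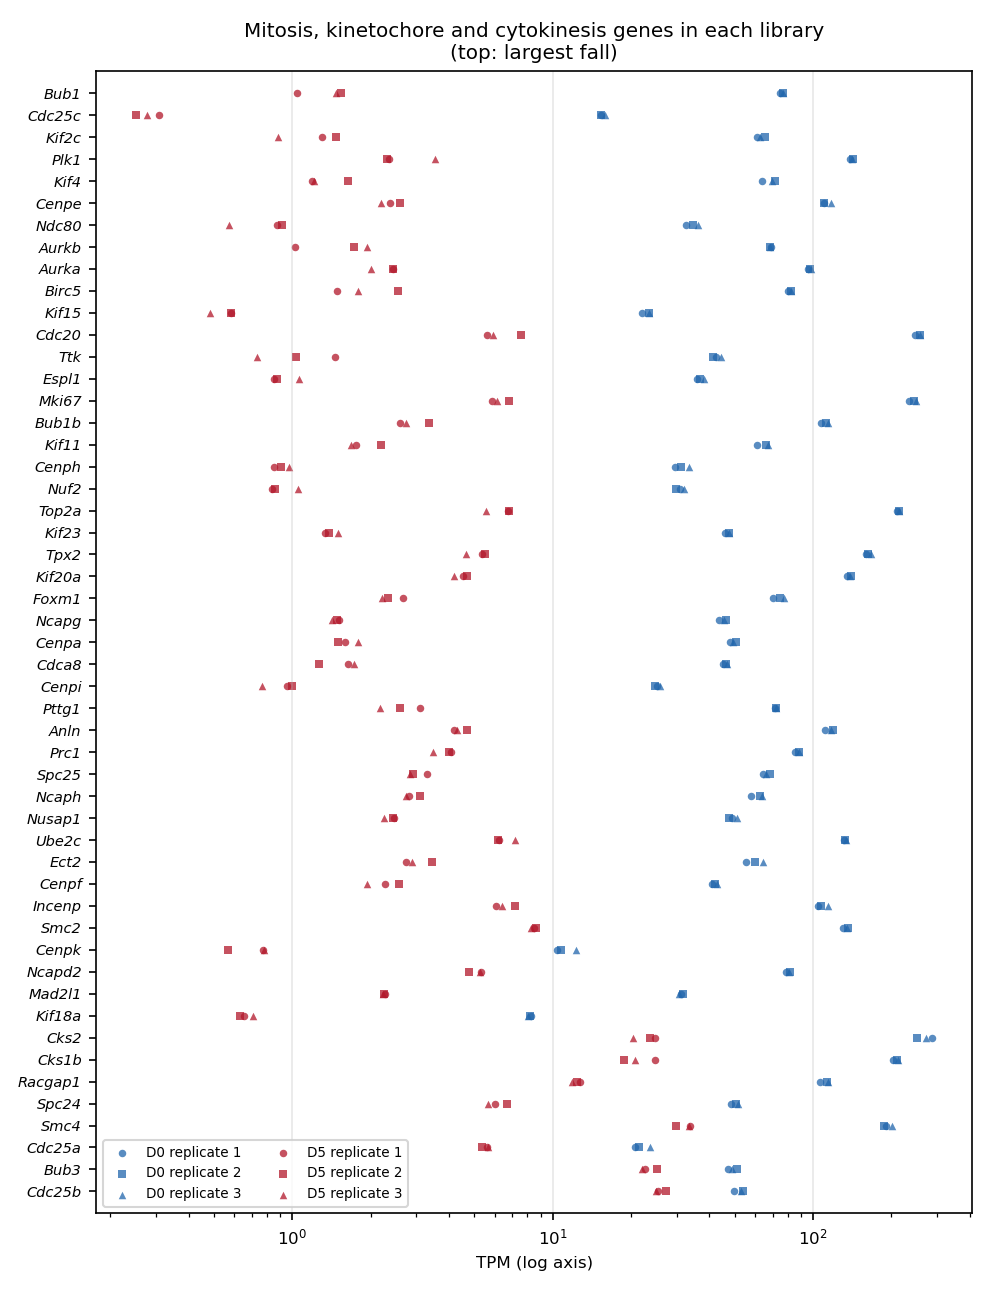
Level per transcript length in TPM (log axis; the length-scaled values of a library sum to 1000000) of each of the 51 genes (rows, largest fall at the top) in the 3 D0 libraries (blue) and the 3 D5 libraries (red). The colours are apart in every row, and the rows with the smallest gap are Cdc25b and Bub3 at the bottom.

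The spindle assembly checkpoint holds the cell in metaphase until every kinetochore is attached, and its 5 genes had a median log2 fold change of -5.10. With the scaling used here and all 6 libraries, Bub1 (chromosome 2, 127801122 to 127831865, GRCm38), the kinase that recruits checkpoint proteins to kinetochores, had the largest fall of the 51 genes. Cdc25c led instead with spike-in scaling, without D0 replicate 2 or without D5 replicate 1, and Plk1 led without D5 replicate 3. Bub1 had 3568, 4062 and 3827 counts at D0 and 36, 54 and 52 at D5. The days were far apart in every library, and Bub1 fell by 5.65 on the log2 scale (SE 0.0745, edgeR adjusted p = 9.5e-33), leaving 1.99% of its D0 CPM. Ttk, the Mps1 kinase that starts checkpoint signalling, fell by 5.15, and Bub1b, which encodes the checkpoint inhibitor BubR1, fell by 5.10. Mad2l1, whose product binds and holds Cdc20, kept 8.05% of its level (log2 fold change -3.63).

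Bub3 (chromosome 7, 131560222 to 131571895) stood apart from its partners. Its product is the adaptor that brings Bub1 and BubR1 to kinetochores. Bub3 had 3640, 4328 and 3945 counts at D0 and 1256, 1427 and 1245 at D5. In CPM the D5 libraries were all below the D0 libraries, and 53.0% of the D0 level remained (log2 fold change -0.92, SE 0.0454, edgeR adjusted p = 8.8e-18). Per transcript length, Bub3 was at 0.634, 0.662 and 0.641 times the level of Bub1 in the D0 libraries and at 21.7, 16.4 and 14.9 times in the D5 libraries. Its ratio to Bub1b moved from 0.431 to 0.454 at D0 to 7.51 to 8.71 at D5.

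The mitotic kinases and the chromosomal passenger complex, which corrects faulty kinetochore attachments and later marks the cleavage plane, formed the group with the lowest median, -5.24 over 6 genes. Plk1, the polo-like kinase that acts from mitotic entry to cytokinesis, had 3364, 3806 and 3552 counts at D0 and 41, 41 and 63 at D5. Its D5 replicate 3 was above the other D5 libraries, yet still far below every D0 library, and Plk1 fell by 5.52 (SE 0.0777, edgeR adjusted p = 4.8e-32). Aurkb, the kinase of the passenger complex, and Aurka, the centrosome and spindle pole kinase, had log2 fold changes of -5.29 and -5.24.

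The other passenger subunits did not all move by the same amount. Birc5 (survivin) fell by 5.24 and Cdca8 (borealin) by 4.74. Incenp, the scaffold that binds and activates Aurkb, had 4986, 5651 and 5652 counts at D0 and 208, 251 and 224 at D5, the smallest fall in this group (log2 fold change -3.89, SE 0.0541, edgeR adjusted p = 3.5e-32). Incenp over Aurkb per length was 1.51 to 1.66 at D0 and 3.31 to 5.90 at D5. The Aurkb counts at D5 were 24, 41 and 46, so the spread of that ratio at D5 rests on few reads.

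The kinetochore group held 10 genes with a median of -4.70. Cenpe, the kinesin that carries chromosomes towards the metaphase plate, had the largest fall there, with 10477, 11525 and 11643 counts at D0 and 162, 181 and 152 at D5 (log2 fold change -5.40, SE 0.0527, edgeR adjusted p = 4.7e-36). Cenpa, the histone H3 variant that marks centromeres, kept 3.70% of its level. The inner kinetochore genes Cenph and Cenpk kept 3.24 and 7.08% and Cenpi was at -4.64 on the log2 scale, while Cenpf, a large outer kinetochore protein, kept 6.01%. Cenph and Cenpk, with 12 to 14 and 24 to 33 counts at D5, had standard errors of 0.134 and 0.119, against a median of 0.065 over the 51 genes.

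The NDC80 complex is the microtubule-binding rod of the kinetochore, made of Ndc80 and Nuf2 at the microtubule end and Spc24 and Spc25 at the centromere end. Ndc80 and Nuf2 had log2 fold changes of -5.29 and -4.92, and their ratio did not separate the days. Nuf2 over Ndc80 per length was 0.864 to 0.950 at D0 and 0.939 to 1.84 at D5. Spc25 fell by 4.30. Spc24 had 1375, 1581 and 1526 counts at D0 and 122, 139 and 117 at D5, the smallest fall of the kinetochore group (log2 fold change -2.88, SE 0.0685, edgeR adjusted p = 4.0e-26), with 13.5% left. Spc24 was below Spc25 in every D0 library, at 0.744 to 0.783 times its level per length, and above it in every D5 library, at 1.82 to 2.30 times.

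Motors and spindle proteins fell together, with a median of -4.95 over 7 genes and a smallest fall of 3.46. Kif2c (chromosome 4, 117159639 to 117182639), the microtubule depolymerase that removes faulty attachments, had 2930, 3459 and 3132 counts at D0 and 45, 52 and 31 at D5 (log2 fold change -5.53, SE 0.0819, edgeR adjusted p = 1.8e-31). Kif4, a chromosome-bound kinesin, fell by 5.50. Kif11 and Kif15, the motors that push spindle poles apart, had log2 fold changes of -4.95 and -5.22. Tpx2, the spindle factor that activates Aurora A, kept 3.54% of its level, and Nusap1, which bundles spindle microtubules, kept 5.40%. Kif18a, which damps chromosome movements at the metaphase plate, had the lowest D0 level of all 51 genes per length (8.17 TPM) and went from 893, 978 and 909 counts to 51, 50 and 56.

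The 6 cytokinesis genes had a median of -4.45. Kif23, the motor subunit of centralspindlin, the complex that organises the midzone, had 3998, 4550 and 4302 counts at D0 and 84, 88 and 96 at D5 (log2 fold change -4.90, SE 0.0601, edgeR adjusted p = 1.5e-33). Its partner Racgap1, which links centralspindlin to the activation of RhoA, had 8321, 9693 and 9279 counts at D0 and 717, 709 and 680 at D5 (log2 fold change -3.01, SE 0.0397, edgeR adjusted p = 9.5e-33). Both were lower in every D5 library, but Racgap1 kept 12.4% of its level and Kif23 3.35%. Racgap1 over Kif23 per length was 2.32, 2.38 and 2.41 in the D0 libraries and 9.53, 8.99 and 7.91 in the D5 libraries. Of the other members, Kif20a, which carries the passenger complex to the midzone, had a log2 fold change of -4.79, the contractile-ring scaffold Anln of -4.56, the midzone crosslinker Prc1 of -4.34 and the RhoA exchange factor Ect2 of -4.15.

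Chromosome structure genes and proliferation regulators (10 genes, median -4.70) included both arms of sister separation. Espl1 (separase), the protease that cuts cohesin, had 3457, 3897 and 3818 counts at D0 and 59, 62 and 75 at D5 (log2 fold change -5.15, SE 0.0674, edgeR adjusted p = 7.9e-33), and Pttg1 (securin), its inhibitor, fell by 4.62. Mki67, the proliferation marker that coats mitotic chromosomes, had the highest CPM of the 51 genes at D0 (mean 704) and kept 2.89%. Top2a, the topoisomerase that untangles sister chromatids, kept 3.34%, and Foxm1, a transcription factor of G2 and M phase genes, kept 3.61%.

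Condensin compacts mitotic chromosomes around a core of Smc2 and Smc4. The 3 subunits particular to condensin I, Ncapg, Ncaph and Ncapd2, had log2 fold changes of -4.78, -4.26 and -3.81, and Smc2 fell by 3.83. Smc4 had 10949, 11800 and 12038 counts at D0 and 1396, 1257 and 1403 at D5 (log2 fold change -2.42, SE 0.0397, edgeR adjusted p = 2.6e-30). It was the member with the highest level at D5 per length (32.4 TPM). Smc4 over Smc2 per length was 1.37 to 1.49 at D0 and 3.45 to 4.05 at D5.

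As in the checkpoint group, the falls covered a wide range among the Cdc25 phosphatases, the APC/C partners and the Cks proteins (7 genes, median -3.40). Cdc25 phosphatases remove inhibitory phosphates from cyclin-dependent kinases. Cdc25c, which acts at mitotic entry, had 834, 915 and 897 counts at D0 and 12, 10 and 11 at D5 (log2 fold change -5.63, SE 0.123, edgeR adjusted p = 4.6e-27). It had the lowest D5 level of the 51 genes per length, 0.279 TPM.

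Cdc25b and Bub3 had the smallest falls of the 51 genes, and Cdc25a came next. Cdc25a (chromosome 9, 109875579 to 109893895), which also acts at the entry to S phase, had 1828, 2093 and 2187 counts at D0 and 355, 348 and 367 at D5 (log2 fold change -1.83, SE 0.0552, edgeR adjusted p = 2.2e-23). Cdc25b (chromosome 2, 131186949 to 131198497), an activator of Cdk1 in late G2, had 2049, 2423 and 2270 counts at D0 and 748, 818 and 753 at D5 (log2 fold change -0.86, SE 0.0469, edgeR adjusted p = 1.1e-16). The day 5 libraries of Cdc25b did not reach those of day 0 in CPM (29.8, 33.2 and 30.3 against 54.7, 57.6 and 56.4), yet 55.3% of its level remained. Per length, Cdc25b over Cdc25c was 3.24, 3.49 and 3.34 at D0 and 82.2, 108 and 90.3 at D5, while Cdc25a over Cdc25c went from 1.34 to 1.49 up to 18.1 to 21.3.

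Cdc20, the activator of the APC/C at anaphase, fell by 5.16, and Ube2c, the ubiquitin-conjugating enzyme that works with it, by 4.19. The Cks proteins, small subunits that bind cyclin-dependent kinases, fell less, with Cks2 at 9.48% and Cks1b at 11.4% of the D0 level. Cks1b over Cks2 per length was 0.707 to 0.837 at D0 and 0.796 to 1.01 at D5, and the days overlapped.

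**Figure D3:**
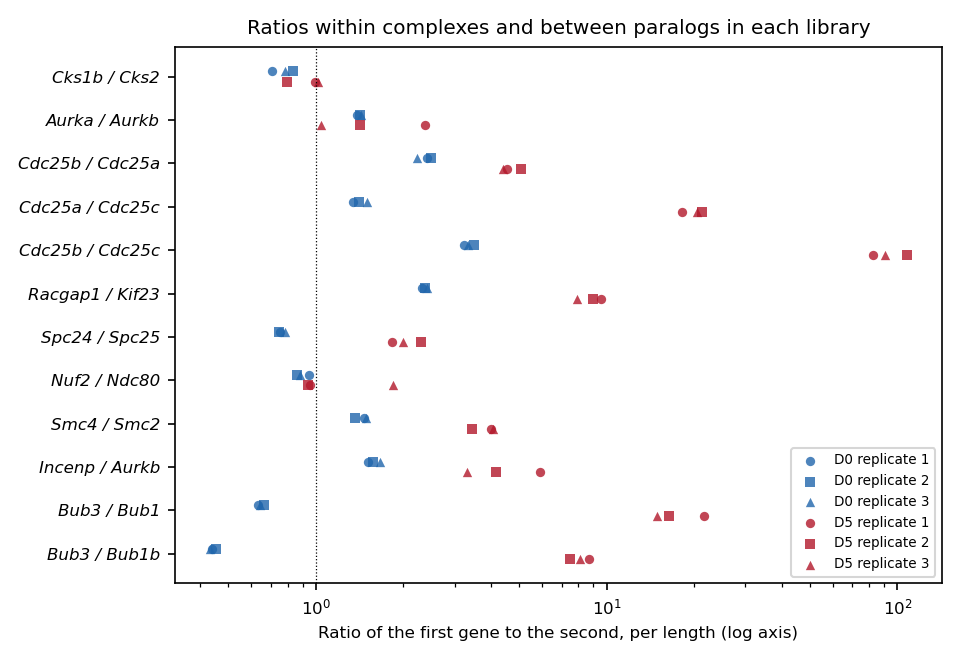
Ratio of the levels of 2 genes per transcript length (log axis) for 12 pairs (rows) in each D0 library (blue) and D5 library (red). The days are apart for 9 pairs, and overlap for Cks1b over Cks2, Aurka over Aurkb and Nuf2 over Ndc80.

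The ratios compare genes within a library and so do not depend on the scaling between libraries. Of the 12 pairs set side by side, 9 had no overlap between days, each with a two-sided exact permutation p of 0.1, the smallest that 3 against 3 libraries allow (0.133 after Benjamini-Hochberg adjustment over the 12 pairs). Only the paralog pairs were set in advance. Several of the pairs within complexes put the smallest fall of a role group beside a larger fall. Their separation follows from the fold changes given above and adds no support to them. Some pairs share a gene, and the share of other gene pairs without overlap was not counted. The log2 ratio of Bub3 to Bub1 rose from 0.055 ± 0.033 to 4.81 ± 0.28 (SD, n = 3), and that of Spc24 to Spc25 from -0.70 ± 0.038 to 0.71 ± 0.17 (SD, n = 3). For Aurka over Aurkb (exact permutation p = 0.9, n = 3 per day) the log2 difference was 0.10 with a standard error of 0.35, and D5 replicate 1 lay at 2.38 per length while replicate 3 lay at 1.04. The exact permutation p was 0.2 for Cks1b over Cks2 and for Nuf2 over Ndc80.

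Ordered by the size of the fall, most neighbours could not be ranked. In 39 of the 50 steps from one gene to the next, the difference was within the sum of their standard errors. Of the 11 steps beyond it, 9 lay among the smaller falls, from Cenpf (-4.06) to Bub3. The last steps were the widest, from Spc24 to Smc4, Smc4 to Cdc25a and Cdc25a to Bub3, and Bub3 and Cdc25b themselves were within error of each other. Over the 51 genes, the log2 fold change showed almost no relation to the D0 level (Pearson r -0.058, Spearman rho -0.029), exonic length (-0.028 and 0.035) or transcript GC content (0.034 and -0.070). These correlations are across genes of the same libraries, which are not independent replicates.

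**Figure D4:**
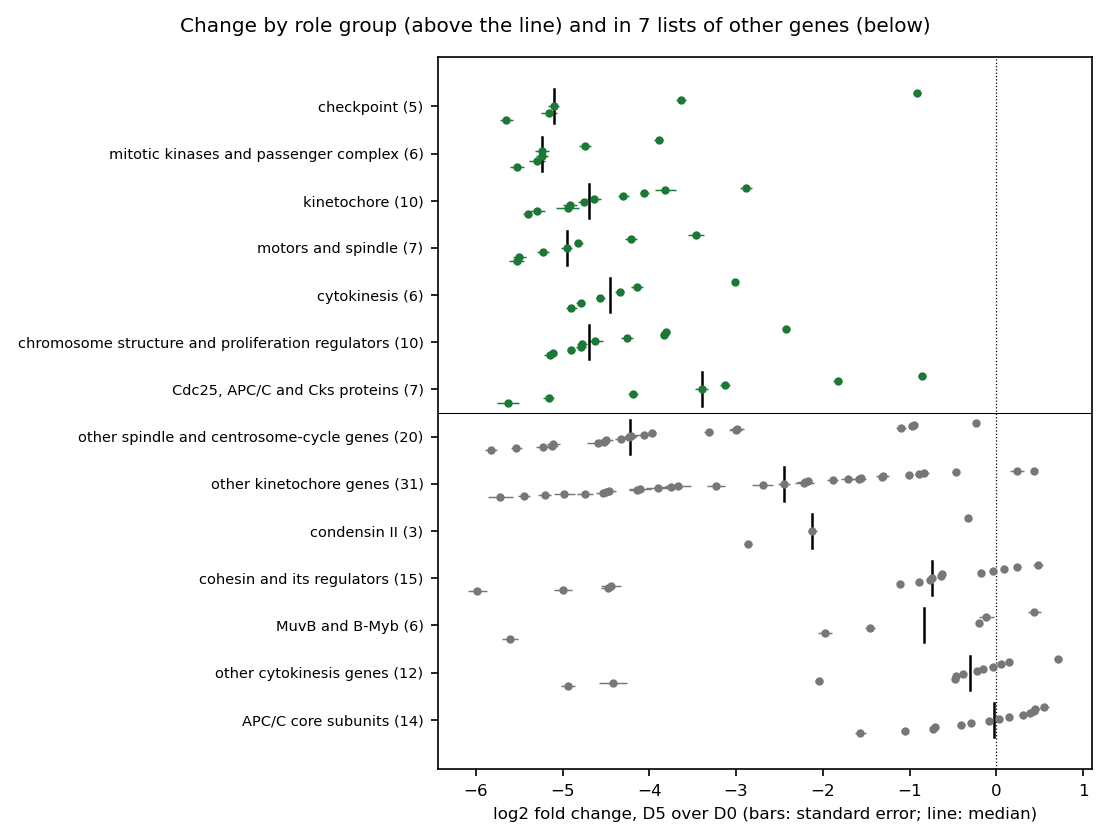
Log2 fold change of D5 over D0 with its standard error (horizontal axis) for the 51 genes by role group (green, above the line) and for 7 lists of other genes (grey, below the line), with the median of each as a black bar and the number of genes in brackets. All green points lie below 0, and the lists range from a median of -4.22 (other spindle genes) to -0.03 (APC/C core). The 14 grey genes called higher were not called higher with spike-in scaling or with none.

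A further 7 lists of other genes of the same machinery were set beside the 51 genes. Of their 101 genes, all of them tested, 81 were lower and 14 were higher at D5, but under scaling to the spike-ins 67 were lower and none higher, and without scaling 99 were lower and none higher. Of all 16290 genes tested, 6641 were lower and 6869 higher with the scaling used here. With spike-in scaling these numbers were 3747 and 1813, and with none 10953 and 3353. With none, every library was given the same size, so the smaller gene counts at D5 lower every log2 fold change. The spindle list was closest to the 51 genes. All 20 of its genes were lower (median -4.22), against 40.8% of all genes tested, 16 of them at least 4-fold, against 6.16%. They ranged from the kinesin Kif14 (4061, 4596 and 4435 counts to 42, 48 and 54, log2 fold change -5.82) and the microtubule-binding Hmmr (-5.53) to the microtubule polymerase Ckap5 (-0.95) and Numa1 (-0.24), which anchors dynein at spindle poles. With spike-in scaling 19 of the 20 were lower. Numa1 fell by more there, but with a standard error of 0.52 against 0.033 it lost its call (-0.82, edgeR adjusted p = 0.22).

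Among 31 other kinetochore genes 29 were lower, against 40.8% of all genes tested, with a median of -2.45. At least 4-fold falls were found for 19 of them, against 6.16% of all genes. With spike-in scaling 28 of the 31 were lower. Ska1, part of a microtubule-tracking complex, fell by 5.72, and Knl1, the scaffold that recruits Bub1 and Bub3, fell by 5.44. The centromere-binding Cenpb (0.43) and Cenpx (0.24), which also acts in DNA repair, were higher with the scaling used here and lower or not called with spike-in scaling or none. All 3 subunits of condensin II were lower, against 40.8% of all genes tested, with Ncapg2 at -2.86, Ncapd3 at -2.12 and Ncaph2 at -0.32. With spike-in scaling Ncaph2 fell by more, but with a standard error of 0.52 against 0.035 it lost its call (-0.87, edgeR adjusted p = 0.19).

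The core subunits of the APC/C, which is also active in G1 and in postmitotic cells, were counted in both directions. With the scaling used here, 6 of 14 genes were lower, close to the 40.8% of all genes tested, 6 were higher and 2 were not called, with a median of -0.03 and none lower by 4-fold. With spike-in scaling 4 were lower and none higher, and with no scaling 13 were lower and none higher. Of all 16290 genes tested, 3747 were lower with spike-in scaling and 10953 with no scaling. The extremes were Anapc15 (-1.57) and Cdc23 (-1.05) on one side and Anapc10 (0.45) and Anapc13 (0.55) on the other.

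Of 15 genes of cohesin and its regulators, 11 were lower, against 40.8% of all genes tested. At least 4-fold falls were found for 4 of these, against 6.16% of all genes. The largest was that of the cohesin protector Sgo1 (1496, 1779 and 1726 counts to 12, 24 and 13, log2 fold change -5.98). The others were the acetyltransferase Esco2 (-4.99), Sgo2a (-4.48) and Cdca5 (sororin, -4.44). Sgo2a and Cdca5 were named after their values were seen. Esco1 (0.48), Mau2 (0.24) and Wapl (0.09) were higher with the scaling used here. With spike-in scaling none of the 3 was called (edgeR adjusted p = 0.92, 0.67 and 0.48), and with no scaling all 3 were lower. Of all 15 genes, 8 were lower with spike-in scaling, against 3747 of all 16290 genes tested.

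Among 12 other cytokinesis genes, 8 were lower with the scaling used here, 3 with spike-in scaling and 11 with none. Over all 16290 genes tested these counts were 6641, 3747 and 10953. With the scaling used here 3 were lower by at least 4-fold, against 6.16% of all genes tested. Among them were Cep55, the midbody organiser, at -4.94 and Arhgef39 at -4.42. The ESCRT subunits Chmp2a (0.71) and Chmp4b (0.15), which also serve membrane fission elsewhere, were higher with the scaling used here but not with spike-in scaling or none. MuvB is a complex that represses or, with B-Myb, activates mitotic genes. Of 6 genes for MuvB and B-Myb, 4 were lower with the scaling used here, against 40.8% of all genes tested. With spike-in scaling 3 were lower. With the scaling used here 1 was higher, but not with spike-in scaling or none. Mybl2 (B-Myb) went from 1630, 1755 and 1714 counts to 20, 22 and 23 (log2 fold change -5.61). Lin9 was at -1.97, Lin52 at -0.11 without a call, and Lin37 at 0.44 with the scaling used here. Lin37 was not called with spike-in scaling (-0.14, edgeR adjusted p = 0.85) and was lower with none (-0.24).

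The promoters of these genes were compared as well. The window from 250 bases before to 50 bases after the annotated start (300 bases, RefSeq, GRCm38.p6) was at hand for 43 of the 51 genes in 48 windows, some of which overlap within a gene. A pair of motifs known from promoters of G2 and M phase genes were searched on both strands, the CHR element (TTTGAA, its reverse complement TTCAAA, and TTTAAA, which reads the same on both strands) and the CCAAT box (CCAAT or ATTGG). The windows of the 4 genes below are shown as examples, chosen among the largest falls for holding both motifs, and are printed 5′ to 3′ on the strand of the gene, with the matches in capitals. They lie at chr7:122159185-122159484 (plus strand, Plk1), chrX:100625815-100626114 (plus strand, Kif4), chr3:135212313-135212612 (plus strand, Cenpe) and chr2:172370521-172370820 (minus strand, Aurka).
Plk1: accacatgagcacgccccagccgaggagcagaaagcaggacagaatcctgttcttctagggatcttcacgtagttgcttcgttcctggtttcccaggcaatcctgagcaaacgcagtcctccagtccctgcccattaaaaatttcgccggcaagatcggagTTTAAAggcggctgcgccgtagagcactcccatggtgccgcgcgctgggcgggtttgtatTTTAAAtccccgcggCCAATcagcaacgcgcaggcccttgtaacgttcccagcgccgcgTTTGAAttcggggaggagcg
Kif4: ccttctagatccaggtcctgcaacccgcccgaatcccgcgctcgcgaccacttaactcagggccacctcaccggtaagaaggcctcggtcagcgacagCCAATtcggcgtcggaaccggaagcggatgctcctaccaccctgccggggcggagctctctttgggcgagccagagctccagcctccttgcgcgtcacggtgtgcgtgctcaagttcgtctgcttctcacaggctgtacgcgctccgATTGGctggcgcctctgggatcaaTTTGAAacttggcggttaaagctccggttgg
Cenpe: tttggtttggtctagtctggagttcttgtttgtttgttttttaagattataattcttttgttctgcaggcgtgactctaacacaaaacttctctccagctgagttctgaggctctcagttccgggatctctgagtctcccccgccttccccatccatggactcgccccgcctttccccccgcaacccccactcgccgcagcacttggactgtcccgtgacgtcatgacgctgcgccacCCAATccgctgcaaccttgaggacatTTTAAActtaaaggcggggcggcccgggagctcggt
Aurka: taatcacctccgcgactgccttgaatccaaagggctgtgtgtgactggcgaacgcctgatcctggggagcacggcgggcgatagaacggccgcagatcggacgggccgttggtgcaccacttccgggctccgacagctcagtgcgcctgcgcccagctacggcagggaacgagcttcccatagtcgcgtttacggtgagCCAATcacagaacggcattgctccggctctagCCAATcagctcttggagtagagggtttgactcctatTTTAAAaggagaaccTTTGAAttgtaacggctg

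All 4 windows hold a CCAAT or ATTGG shortly before the start and a CHR match shortly after it. Counted from the start site, Plk1 has CCAAT at -14 and TTTGAA at 30, Kif4 has ATTGG at -5 and TTTGAA at 19, Cenpe has CCAAT at -12 and TTTAAA at 14, and Aurka has CCAAT at -51 and -19 and TTTAAA at 17 and TTTGAA at 32. Plk1 also has TTTAAA at -89 and -29, and Kif4 has a further CCAAT at -152.

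CHR letters were present in 33 of the 48 windows of members (68.8%), against 19.8% of the 13593 windows of tested genes and 27.6% of all 32851 windows. CCAAT letters were present in 37 (77.1%), against 37.6% of tested and 37.4% of all windows. Both were present in 28 (58.3%), which come from 25 genes, against 7.67% of tested and 10.7% of all windows. Windows with 2 or more CCAAT matches made up 43.8% of the members' windows and 13.8% of those of tested genes. A CHR match starting within 50 bases before to 44 after the start site was present in 58.3% of the members' windows and 5.39% of those of tested genes.

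**Figure D5:**
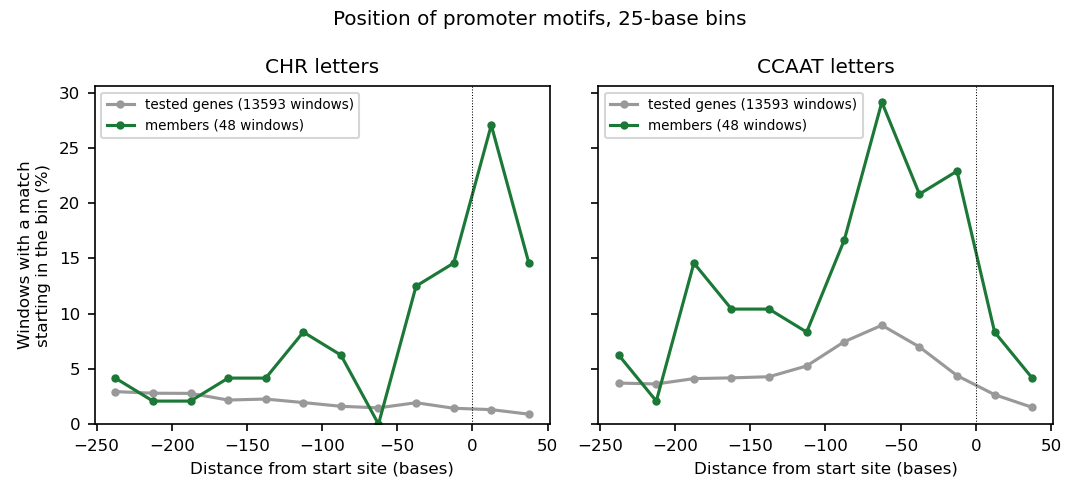
Percent of promoter windows with a match starting in each 25-base bin (vertical axis) by distance from the start site (horizontal axis) for the CHR letters (left) and the CCAAT letters (right), in 48 windows of members (green) and 13593 windows of tested genes (grey). In the bin from 0 to 25 bases after the start, 27.1% of the members' windows and 1.31% of those of tested genes hold CHR letters.

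Large and small falls were found with and without the letters. Bub1 held CCAAT but not CHR, Kif2c held CHR but not CCAAT, and Nuf2, Pttg1, Ncaph, Nusap1, Mad2l1 and Kif18a held neither. Both were present in the windows of Bub3, and the windows of Cdc25a and Cdc25b held CCAAT only. A match is a description of letters and not of binding, and no test was made.

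Some members share sequence with other genes, and the strand setting of the counting is not given in the sources used here. On the opposite strand, 6 of the 51 genes share over 10% of their exonic length with another gene, namely Kif20a with Cdc23 (29.3%), Ube2c with Tnnc2 (22.8%), Kif4 with Pdzd11 (15.1%), Ncapg with Lcorl (13.4%), Cdc25c with Gm3550 (12.7%) and Prc1 with Rccd1 (11.1%). The overlap with the largest opposing change was that of Ube2c. Tnnc2, which encodes fast skeletal troponin C, rose from 8, 6 and 6 counts at D0 to 16359, 20498 and 19380 at D5, while Ube2c fell from 3776, 4183 and 4009 to 128, 130 and 150. The part of Tnnc2 reads in the Ube2c counts at D5 was not tested. Of the 50-base sequences of Cks2, 29.7% occur in transcripts of other genes. The gene with the most matches was the pseudogene Gm15452, which had at most 8 counts in any library. The Cks2 value is uncertain where reads could be split. With Cks2, 8 of the 51 genes had over 10% of their 50-base sequences in transcripts of other genes, among them Plk1 (10.4%) and Cdc20 (10.6%). The same limit holds for them.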

How the data were processed

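Total RNA of 3 C2C12 D0 and 3 C2C12 D5 samples was sequenced. The authors deposited 1 table of gene counts per sample. Per the labels, reads were checked with NGS-QC-Toolkit 2.3.3, aligned to GRCm38 (mm10) with Tophat2 2.0.0 and counted with featureCounts, with DESeq2 1.6.3 for the study's own comparison. The study's methods name the same counter but HISAT2 as the aligner, and which aligner preceded these counts is not settled. Strand setting and annotation version are not given in the sources used here. A nameless row equal to the column total and 92 ERCC rows entered neither library sizes nor tests.

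Counts were tested with edgeR 4.0.16 in R 4.3.3 (quasi-likelihood test, TMM factors, filterByExpr defaults, adjusted p under 0.05 over 16290 genes), with no covariate. Standard errors were taken as the fitted log2 fold change over the root of its F statistic, without sign. CPM used TMM library sizes. TPM used exonic lengths of GENCODE M21, whose IDs matched 99.8% of the rows without version. At 25449759 counts or more per library, the lowest count of a member was 10. Intervals of counting were not computed, and at counts as low as 10 the spread of the replicates can understate the counting error. Promoter windows came from RefSeq (GRCm38.p6). The test was run on simulated counts in which few genes changed, equally often up and down. In these data 13510 genes were called, so that run does not check the choice of scaling.

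The members, the lists of other genes and the markers were chosen with earlier results of these data known. All 51 members could be named, with values in every library for the 3 largest and 3 smallest changes and for the largest and smallest of each role group. Of each list, the 2 largest and 2 smallest changes and the genes going against it were named. Alternatives were upper-quartile factors, total counts, ERCC scaling, no scaling, DESeq2 1.42.0, no filter, at least 10 counts in every library, leaving out each library, and the replicate number as a block. Groups of 3 samples were not searched for outlying libraries.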

Additional observations from a re-analysis of the deposited data

How the results depend on the processing

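All 51 genes were lower and none higher under each alternative, 48 or 49 of them by at least 4-fold, and the days did not overlap for any of them in the alternatives where this was counted. The highest adjusted p of any member was 0.027 (Cdc25b) and 0.022 (Bub3), both in edgeR with ERCC scaling. The median log2 fold change of the members moved from -4.75 to -4.84 with total counts, -5.35 with ERCC scaling and -5.44 with no scaling, as the median of all genes moved to -0.08, -0.58 and -0.68, and relative to that median it was -4.76, -4.77 and -4.76. Leaving out 1 library gave medians from -4.77 to -4.73. Of all calls, 49.2% were lower as reported, 53.6% with total counts, 67.4% with ERCC scaling and 76.6% with no scaling. ERCC scaling made 3747 lower and 1813 higher calls over all genes, against 6641 and 6869, and no scaling 10953 and 3353. Genes lower by at least 4-fold numbered 1003 as reported, 1699 with ERCC scaling, 1810 with no scaling, 1571 with no filter and 621 with at least 10 counts in every library.

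Among the members and the named genes of the other lists, no member reversed in sign and 9 list genes did. With ERCC scaling Cenpx was at -0.28, Cenpb at -0.13, Anapc10 at -0.14, Mau2 at -0.31, Esco1 at -0.079, Wapl at -0.48, Chmp4b at -0.42 and Lin37 at -0.14. None of these was called there, with standard errors of 0.51 to 0.52 and edgeR adjusted p from 0.48 to 0.92. With no scaling Cenpx was at -0.44, Cenpb at -0.25, Anapc10 at -0.23, Anapc13 at -0.13, Mau2 at -0.44, Esco1 at -0.20, Wapl at -0.59, Chmp4b at -0.54 and Lin37 at -0.24. All of these but Anapc13 (edgeR adjusted p = 0.11) were called lower there. With no scaling every library was given the same size, so the difference in depth between the days stays in these values. Gene counts were 36555048 to 40895840 at D0 and 25449759 to 25811300 at D5. The cause of the changes in sign with ERCC scaling was not tested. Without D0 replicate 3 or without D5 replicate 2, Cenpx lost its call (0.16 and 0.15), and so did Wapl without D5 replicate 1 (0.06). With total counts Cenpx (0.15), Wapl (0.0088) and Chmp4b (0.061) lost their calls, as did Wapl with no filter (0.040).

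Samples with the same replicate number did not deviate together in every pair (correlations of -0.0015, 0.24 and 0.085), so the number was not taken as a pairing. With the replicate block, 51 members were lower, 48 at least 4-fold, none was higher and the median was -4.75, with 6664 lower and 6894 higher calls over all genes. Not every sample correlated best with its own number. The D5 depth limits most the members with 10 to 33 counts in every D5 library, Cdc25c, Cenph and Cenpk. Aurkb was in that range in D5 replicate 1 (24 counts), and Ttk (29), Ndc80 (30) and Kif2c (31) in D5 replicate 3.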
